A study of Mus musculus with 25 samples.

Results

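The 8 genes of fatty acid use described here were followed through all 25 libraries of the series: Cpt1a, Cpt2, Ehhadh, Acadm, Acadl, Hadha, Pdk4 and Fgf21. They were taken by symbol from the 37117 rows of the count table, where each symbol had 1 row, and all 8 passed the filter on low counts that left 12970 genes for testing. The choice was by symbol and used no measured value as a criterion, but it was made with earlier results of these data known. None of the 8 encodes a ketone-forming enzyme, so ketogenesis was read from a separate list that includes Bdh1 and Acat1. The libraries were made from hepatocytes sorted out of dissociated mouse liver, 500000 cells a sample, and tags were read from the 3′ end of each transcript (QuantSeq).

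Human YAP was switched on in ApoYap mice (ApoE-rtTA, TRE-hYAP), in which an Apoe-driven, doxycycline-dependent activator acts on a YAP transgene. These mice were sampled untreated (ApoYap ctrl, n = 4) and after 1 week of doxycycline hyclate at 0.2 mg/ml in water with 2.5% sucrose (ApoYap Dox, n = 3). Mice with floxed alleles of both Lats1 and Lats2, the kinases that restrain YAP, were sampled untreated (Lats1/2 flox ctrl, n = 4) and 1 week after an AAV8 vector with Cre under the hepatocyte-specific TBG promoter (Lats1/2 KO, n = 3). C57BL/6 mice without transgene or floxed alleles served as controls of the agents. They were untreated (BL/6 ctrl, n = 4), on the same doxycycline water for 1 week (BL/6 Dox, n = 4) or 24 hours after the AAV-Cre vector (BL/6 AAV-Cre, n = 3). The sampling time after the vector therefore differs between the floxed and the C57BL/6 mice. The labels give no age, sex or batch, and nothing in them says that the replicates of a group came from different animals. The p-values measure the spread between these samples.

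Fatty acids reach the mitochondrial matrix as carnitine esters. CPT1A, on the outer membrane, makes the ester and is the controlled step of entry, and CPT2, on the inner membrane, turns it back into acyl-CoA. ACADL and ACADM start each round of mitochondrial beta-oxidation on long and medium chains, and HADHA is the large subunit of the trifunctional protein that carries out the following steps on long chains. EHHADH is the bifunctional enzyme of peroxisomal beta-oxidation. PDK4 phosphorylates pyruvate dehydrogenase and so limits the use of glucose carbon when fat is burned. FGF21 is a hormone that the liver secretes in fasting and under amino acid or mitochondrial stress. In the fasted liver the nuclear receptor PPAR alpha drives many of these genes, and acetyl-CoA from oxidation is passed on to ketone bodies.

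Library totals ran from 8107539 to 16515330 counts. Lats1 stood at 2.97 to 5.10 CPM (counts scaled to an equal library size) in Lats1/2 KO and at 12.3 to 14.9 CPM in the untreated floxed mice. Its log2 fold change was −1.67 (adjusted p = 4.1e-06, SE 0.23). Lats2 stood at 7.70 to 17.8 CPM against 12.9 to 13.7 CPM (log2 difference −0.13, adjusted p = 0.65). The 3′ tag of Lats2 may lie outside the deleted exons, which the labels do not give, and then checks nothing. Ccn2, a standard YAP target, was at 160.6 to 182.3 CPM in ApoYap Dox and 62.5 to 149.3 CPM in Lats1/2 KO, against at most 4.73 CPM in any library of the other groups. Every library had at most 5 counts of Xist and at least 716 of the Y-linked Ddx3y. All 9 hepatocyte markers of the list that the table holds were present in every group. All CPM are scaled by TMM, which sets libraries level on the bulk of their genes, and adjusted p-values are from edgeR's quasi-likelihood test over the 12970 genes.

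The promoters of 3 members are shown, picked after their values were seen: Fgf21 was the member that rose on YAP induction, Ehhadh had the largest fall and Cpt1a the smallest of those called lower. Each sequence gives the 250 bases before the RefSeq start site (GRCm38.p6), read along the gene. Capitals mark matches on either strand to the TEAD motif GGAATG, the site of the DNA-binding partners of YAP, or to the composite motif TGATGNAA, bound by ATF4, the main transcription factor of the amino acid stress response. The windows are chr7:45615491-45615740 (minus strand) for Fgf21, chr16:21787835-21788084 (minus strand) for Ehhadh and chr19:3323051-3323300 (plus strand) for Cpt1a. The Cpt1a window lies inside the gene as GENCODE gives it (from 3322334), since the RefSeq start used is further downstream.
Fgf21: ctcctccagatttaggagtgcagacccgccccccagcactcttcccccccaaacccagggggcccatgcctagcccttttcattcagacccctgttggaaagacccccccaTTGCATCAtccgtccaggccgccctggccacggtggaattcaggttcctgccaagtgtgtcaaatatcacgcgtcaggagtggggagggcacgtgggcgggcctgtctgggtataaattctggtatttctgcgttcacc
Ehhadh: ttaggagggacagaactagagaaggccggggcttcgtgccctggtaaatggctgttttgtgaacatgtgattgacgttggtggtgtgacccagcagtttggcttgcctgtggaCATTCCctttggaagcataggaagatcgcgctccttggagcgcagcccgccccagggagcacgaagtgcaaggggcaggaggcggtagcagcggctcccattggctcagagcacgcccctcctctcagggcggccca
Cpt1a: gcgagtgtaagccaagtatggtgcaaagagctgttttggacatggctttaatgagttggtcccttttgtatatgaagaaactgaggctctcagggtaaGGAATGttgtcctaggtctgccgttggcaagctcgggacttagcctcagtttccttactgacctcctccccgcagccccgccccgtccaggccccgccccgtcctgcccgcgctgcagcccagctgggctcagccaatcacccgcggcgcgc

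All 8 members had a promoter in the RefSeq table. The composite motif was found in the Fgf21 window alone among the 8, beginning 139 bases before the start, and in 3.45% of 32851 promoter windows of the same length. The TEAD motif was found in Cpt1a (152 bases before the RefSeq start) and in Ehhadh (137 bases), and in 12.6% of all windows. A PPAR element spelled as the perfect direct repeat AGGTCANAGGTCA was in none of the 8 and in 0.0335% of all windows. Its core AGGTCA was in Cpt1a and Acadm and in 14% of all windows, and the E-box CACGTG was in Fgf21 and 6.02%. E-boxes and AGGTCA cores are not capitalised. These are letter matches in a short window and describe its sequence only.

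After 1 week of YAP induction 6 of the 8 genes fell, 1 rose and 1 was not called. In this comparison 67.0% of all genes tested were called, 35.0% higher and 32.0% lower, so that a call by itself is common. The median log2 fold change of the 8 was −0.78, and that of all genes 0.068. The members fell by very different amounts, from Cpt1a at 1.44-fold to Ehhadh at 7.41-fold, and the groups did not overlap for any of the 7 genes called (no overlap was seen for 36.7% of all genes in the higher and 32.6% in the lower direction).

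**Figure D1:**
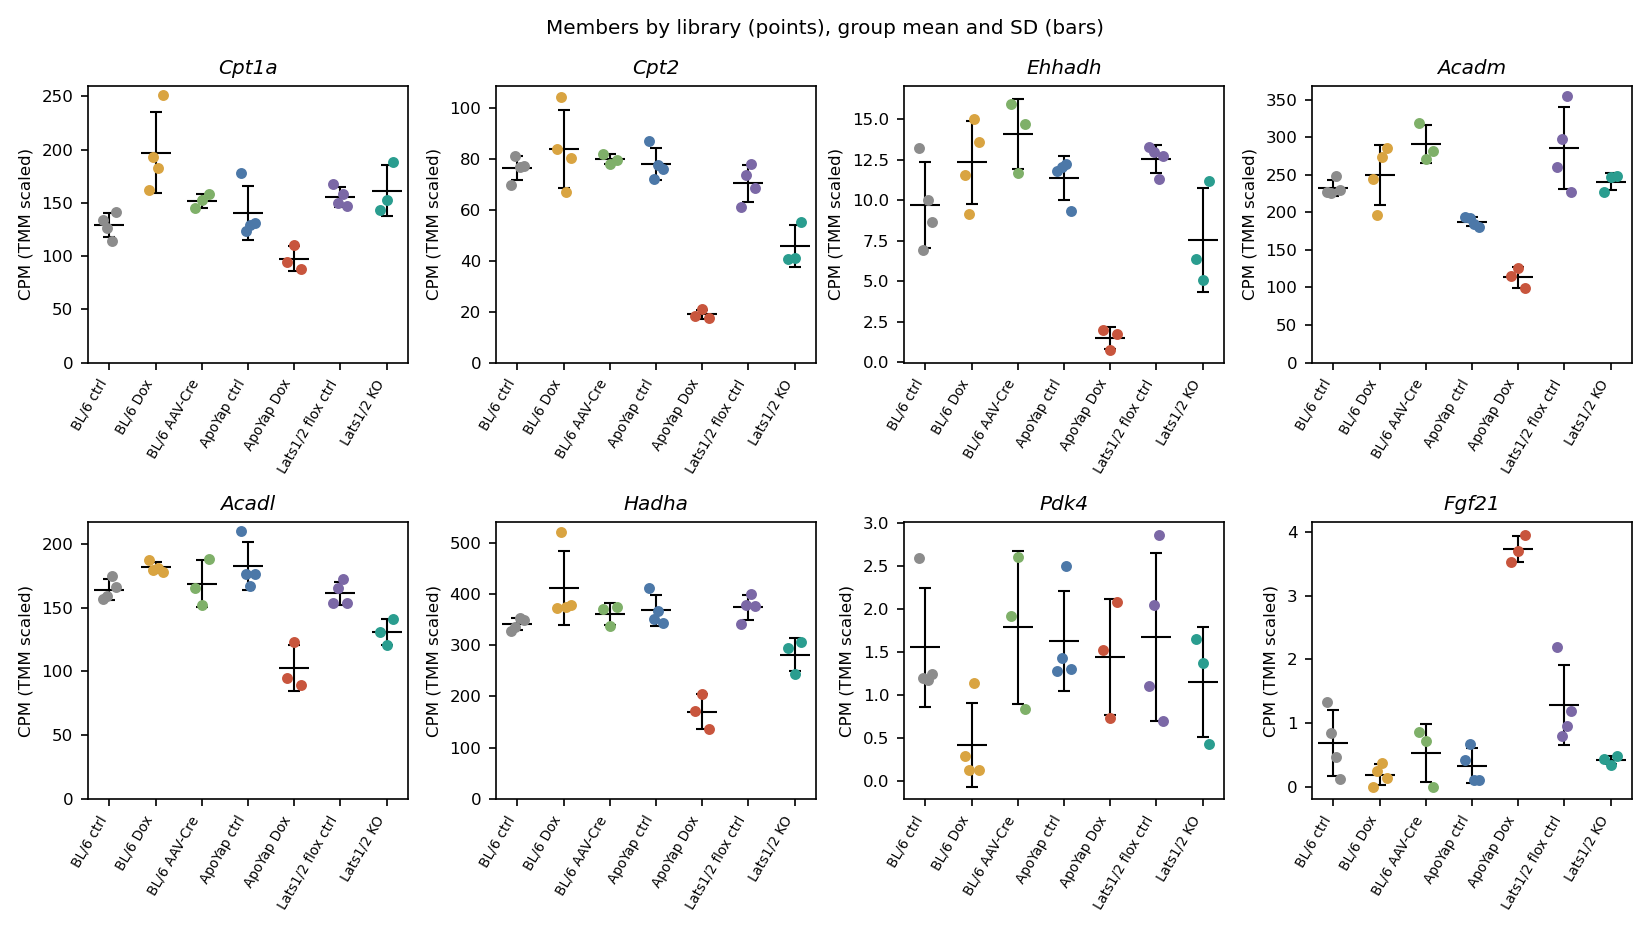
Level of each gene in every library, in CPM with TMM scaling (y axis), for the 7 groups (x axis); points are libraries and bars are the group mean and SD. Cpt2 and Ehhadh are lowest and Fgf21 highest in the 3 ApoYap Dox libraries, with Fgf21 at 3.54 to 3.96 CPM there and at most 2.19 CPM in every other library.

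The carnitine shuttle was affected unevenly. Cpt1a (chromosome 19, 3322334 to 3385733, GRCm38) had levels of 178, 124, 129 and 131 CPM in ApoYap ctrl and at 94.0, 111 and 87.8 CPM in ApoYap Dox. The 3 induced libraries lay below all 4 controls, of which the first stood apart upwards. The log2 fold change was −0.53 (SE 0.14, adjusted p = 0.0021). Cpt2 (chromosome 4, 107903981 to 107923610) had levels of 86.8, 72, 77.4 and 76.0 CPM in the controls and at 18.3, 21 and 17.4 CPM after induction. It was 4.13-fold lower, with all induced libraries far below the controls and close to each other (18.9 ± 1.86 CPM, SD, n = 3), and the log2 fold change was −2.05 (SE 0.14, adjusted p = 3.6e-12).

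The ratio of the counts of Cpt1a to those of Cpt2 in a library does not depend on how libraries are scaled. This pair was picked after its values were seen, so the ratio is given as a description. It was 1.79 ± 0.18 (SD, n = 4) in ApoYap ctrl and 5.15 ± 0.12 (n = 3) in ApoYap Dox. In Lats1/2 flox ctrl the ratio was 2.24 ± 0.35 (n = 4) and in Lats1/2 KO 3.54 ± 0.14 (n = 3). BL/6 ctrl stood at 1.70 ± 0.21, BL/6 Dox at 2.41 ± 0.62 and BL/6 AAV-Cre at 1.90 ± 0.12. The ratios of both YAP-activated groups lay above those of every other library, with 3.41 as the lowest of them and 3.14, in BL/6 Dox, as the highest elsewhere.

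**Figure D2:**
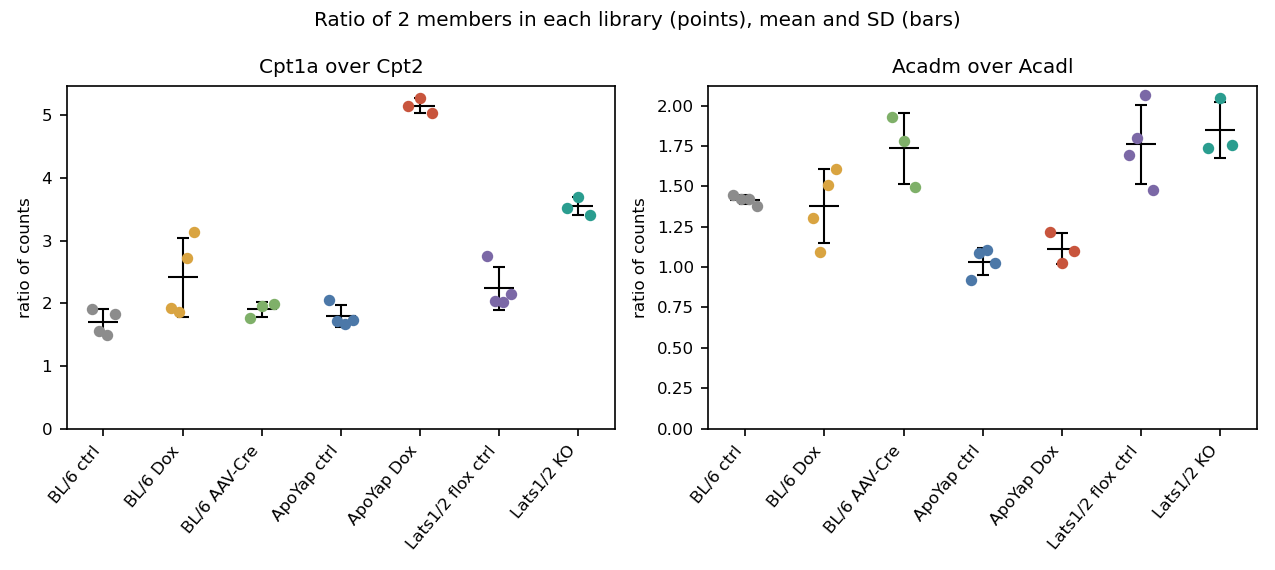
Ratio of the counts of Cpt1a to Cpt2 (left) and of Acadm to Acadl (right) in each library (y axis, no unit) for the 7 groups (x axis); points are libraries, bars are mean and SD. The Cpt1a to Cpt2 ratio is 5.04 to 5.28 in ApoYap Dox and 1.67 to 2.06 in its controls, whereas the Acadm to Acadl ratio of these groups overlaps (1.02 to 1.22 and 0.918 to 1.11).

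The 3 enzymes of mitochondrial beta-oxidation all fell. Acadm (chromosome 3, 153922357 to 153944632) was at 193, 193, 185 and 181 CPM in ApoYap ctrl and at 116, 126 and 98.7 CPM in ApoYap Dox (−0.73 on the log2 scale, SE 0.14, adjusted p = 4.1e-05). Acadl (chromosome 1, 66830839 to 66863277) went from 210.4, 177, 167 and 177 CPM to 95.2, 123 and 89.6 CPM (−0.83, SE 0.11, adjusted p = 4.4e-07). Both dehydrogenases fell in all 3 libraries, and their ratio of counts was 1.03 ± 0.085 (SD, n = 4) before and 1.11 ± 0.096 (n = 3) after induction. The Acadl locus holds a processed pseudogene, Gm15793, on the same strand over 495 bases.

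Hadha (chromosome 5, 30118304 to 30155162) went from 411, 351, 367 and 343 CPM to 171, 205 and 136 CPM. No induced library came near the controls, and the log2 fold change was −1.11 (SE 0.14, adjusted p = 1.0e-07). Its partner Hadhb, the small subunit of the same protein, starts 86 bases away on the other strand and fell by 1.17 (adjusted p = 2.2e-06). The last 75 bases of Hadha overlap the end of Garem2 on the other strand, and whether counting used strand is not known, so the Hadha count could hold Garem2 tags.

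The peroxisomal enzyme had the largest fall of the 8. Ehhadh (chromosome 16, 21761287 to 21787807) was at 11.8, 12.1, 12.3 and 9.32 CPM in ApoYap ctrl, from 93 to 167 counts a library. In ApoYap Dox it was at 1.99, 0.769 and 1.79 CPM, from 55, 17 and 37 counts. The log2 fold change was −2.89 (SE 0.29, adjusted p = 4.0e-09), and the second induced library was the lowest.

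The kinase and the hormone did not fall with the enzymes. Pdk4 (chromosome 6, 5483351 to 5496309) was low throughout, at 1.27, 1.43, 2.49 and 1.30 CPM in ApoYap ctrl and 1.52, 0.724 and 2.08 CPM in ApoYap Dox. The groups overlapped, with a log2 difference of −0.16 (SE 0.55, 95% interval −1.23 to 0.91, adjusted p = 0.81). At 13 to 43 counts a library a change within that interval was not detectable.

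Fgf21 (chromosome 7, 45613886 to 45615490) was at 0.424, 0.671, 0.104 and 0.100 CPM in ApoYap ctrl, which are 6, 8, 1 and 1 counts. In ApoYap Dox it was at 3.54, 3.71 and 3.96 CPM, from 98, 82 and 82 counts. The induced libraries were close to each other and all above the controls, and the log2 fold change was 3.41 (SE 0.62, 10.6-fold, adjusted p = 3.1e-05). Because the controls hold so few counts, the size of the rise is loosely set, with a 95% interval of 2.19 to 4.63 on the log2 scale.

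These directions depend on the scaling. When only the library totals were used, the median log2 fold change of all genes moved by 0.918 to 0.986, and the share of calls that were higher went from 52.2% to 84.0%. On that scale Cpt2 (−1.13), Ehhadh (−1.97) and Fgf21 (4.33) kept their calls, Cpt1a was called higher (0.39, adjusted p = 0.014), and Acadm (0.19), Acadl (0.08) and Hadha (−0.20) were not called. RLE scaling moved the median by 0.106 and left the 8 calls as they were. Going from TMM to library totals moves all genes of a comparison by nearly the same amount. Positions relative to the median of all genes are therefore nearly fixed in advance and do not test the directions. On these 2 scales they were −0.60 and −0.60 for Cpt1a, −0.80 and −0.80 for Acadm, −2.11 and −2.12 for Cpt2.

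**Figure D3:**
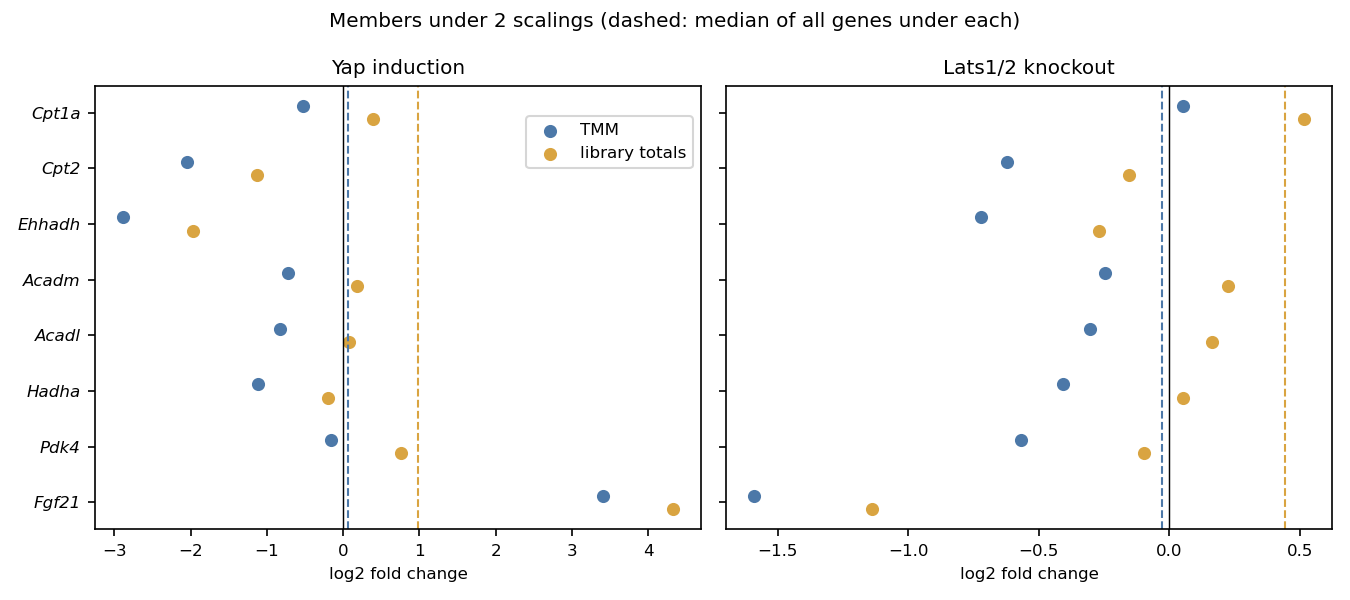
Log2 fold change (x axis) of the 8 genes (y axis) in YAP induction (left) and the Lats1/2 knockout (right) with TMM scaling (blue) and with library totals alone (yellow); dashed lines are the median of all genes on each scale. With totals the median of all genes lies at 0.986 in YAP induction, and Cpt1a at 0.39 lies above 0 but below that line.

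Loss of Lats1 and Lats2 gave smaller differences, with 4 of the 8 genes lower and none higher. In this comparison 38.0% of genes were called, 20.6% higher and 17.4% lower. The median of the 8 was −0.49 and that of all genes −0.028. Of the 8 genes 5 had all knockout libraries below all controls, which held for 18.8% of all genes. Cpt2 was at 61.1, 73.8, 78 and 68.5 CPM in Lats1/2 flox ctrl and at 40.7, 41.2 and 55.2 CPM in Lats1/2 KO. All knockout libraries lay below the controls, the third nearest to them, and the log2 fold change was −0.62 (SE 0.13, adjusted p = 6.0e-04). Cpt1a, at 168, 149.7, 158 and 147 CPM against 144, 152 and 188 CPM, overlapped (0.05, SE 0.14, 95% interval −0.22 to 0.33, adjusted p = 0.80).

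Hadha went from 341, 378, 401 and 376 CPM to 295, 244 and 305 CPM, below all controls (−0.41, SE 0.13, adjusted p = 0.018). Acadl went from 154, 165, 172 and 154 CPM to 131, 120.5 and 141 CPM, also without overlap (−0.30, SE 0.11, adjusted p = 0.034). Acadm, at 261, 298, 355 and 227 CPM against 228, 247 and 248 CPM, overlapped and was not called (−0.24, SE 0.13, adjusted p = 0.16). Ehhadh was at 13.3, 12.9, 11.3 and 12.7 CPM in the controls and at 6.40, 5.06 and 11.2 CPM in the knockout. Lats1/2 KO 3 stood just under the lowest control and the other knockout libraries far lower, and the log2 fold change was −0.72 (SE 0.26, adjusted p = 0.030).

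Of these 4 calls Cpt2 was the one that did not depend on any library left out. Ehhadh lost its call without Lats1/2 KO 1 (adjusted p = 0.12), Lats1/2 KO 2 (0.20), Lats1/2 flox ctrl 1 (0.056) or 2 (0.055), and Acadl without Lats1/2 KO 1 (0.083), KO 2 (0.17), Lats1/2 flox ctrl 2 (0.067) or 3 (0.086). Acadl also lost it with DESeq2 (0.069), RLE scaling (0.092) and no filter on low counts (0.11). Hadha lost its call without Lats1/2 KO 2 (0.13), and with library totals alone, which moved the median of all genes by 0.470 and the share of higher calls from 54.2% to 91.0%, none of the 4 was called and Cpt1a was higher (0.52).

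Neither Pdk4 nor Fgf21 was called in the knockout. Pdk4 was at 1.10, 2.04, 2.86 and 0.690 CPM in the controls and at 1.64, 1.37 and 0.424 CPM in the knockout (−0.57, SE 0.59, adjusted p = 0.48). Fgf21 was at 2.19, 0.795, 0.953 and 1.18 CPM against 0.432, 0.342 and 0.477 CPM, from 20, 7, 8 and 12 counts against 5, 5 and 9. All 3 knockout libraries were below all 4 controls, opposite to the side taken in ApoYap Dox, with a log2 difference of −1.59 (SE 0.67, adjusted p = 0.063).

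**Figure D4:**
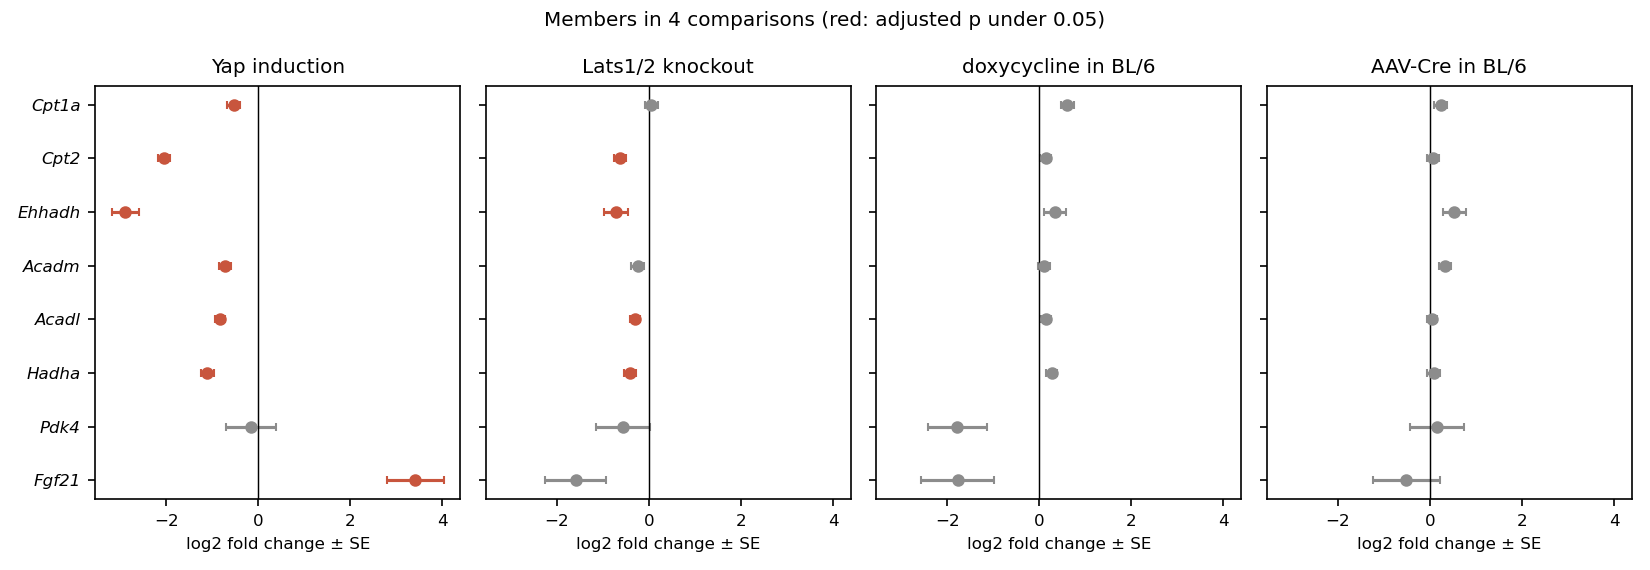
Log2 fold change with its standard error (x axis) of the 8 genes (y axis) in 4 comparisons; red points have an adjusted p under 0.05. Of the 8 genes, 7 are red in YAP induction, 4 in the knockout and none in the 2 C57BL/6 comparisons; Fgf21 is at 3.41 in YAP induction and −1.59 in the knockout.

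The difference between both responses was itself tested, as the knockout change less the change on YAP induction. Of the 8 genes 6 were called, and of all genes 29.8% (58.5% of these higher, or 24.3% with library totals). The fall was smaller in the knockout for Cpt2 (1.43, SE 0.18, adjusted p = 2.3e-06), Ehhadh (2.17, SE 0.38, adjusted p = 1.1e-04), Hadha (0.70, adjusted p = 0.0061) and Acadl (0.53, adjusted p = 0.012). For Cpt1a the difference was 0.58 (adjusted p = 0.029), a call lost without ApoYap ctrl 1 (0.082), ApoYap Dox 1 (0.062), ApoYap Dox 3 (0.087) or Lats1/2 KO 3 (0.11). With library totals Hadha (0.25, adjusted p = 0.22), Acadl (0.082, adjusted p = 0.66) and Cpt1a (0.13, adjusted p = 0.62) were not called. Acadm missed the threshold (0.48, 95% interval 0.12 to 0.85, adjusted p = 0.054), which it passed with DESeq2 (0.45, adjusted p = 0.044). The Fgf21 changes differed by −5.00 (SE 0.92, adjusted p = 1.8e-04), and for Pdk4 the difference of −0.41 had an interval of −1.97 to 1.16 (adjusted p = 0.75). The induced transgene and the knockout also differ in strain and agent, which cannot be told apart from the way of activating YAP.

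Doxycycline water alone called none of the 8 genes in C57BL/6 hepatocytes, where 0.123% of all genes were called. For 3 of them all treated libraries lay above the controls (3.33% of all genes), and for 1, Pdk4, below them (3.29%). At an unadjusted p under 0.05 there were 4, a cut for which no share of all genes was worked out, and DESeq2 called 1, Cpt1a. Cpt1a was at 133, 127, 114 and 142 CPM in BL/6 ctrl and at 162, 193, 182 and 251 CPM in BL/6 Dox. All 4 treated libraries were higher, with a log2 difference of 0.61 (SE 0.13, adjusted p = 0.066). DESeq2 gave an adjusted p of 0.0028, and without BL/6 Dox 1 edgeR gave 0.033. That was the only 1 of the 8 single libraries left out that brought a call, and the highest value was 0.20. The other alternatives gave adjusted p-values up to 0.19. Pdk4 was at 2.59, 1.19, 1.18 and 1.24 CPM against 0.282, 0.119, 1.13 and 0.130 CPM, a difference of −1.78 (SE 0.64, adjusted p = 0.26) that rests on 2, 1, 12 and 1 counts. Fgf21 had 17, 7, 4 and 1 counts in BL/6 ctrl and 0, 2, 4 and 1 in BL/6 Dox (−1.77, SE 0.80, adjusted p = 0.38), and the count of 0 allows up to 3 counts in that library. Hadha, at 327 to 353 CPM against 372 to 520.0 CPM, was higher in all treated libraries (0.27, adjusted p = 0.39).

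The change on YAP induction was also tested against that on doxycycline in C57BL/6 mice. Net of doxycycline the log2 changes were −1.14 for Cpt1a, −2.18 for Cpt2, −3.23 for Ehhadh, −0.83 for Acadm, −0.98 for Acadl, −1.38 for Hadha and 5.18 for Fgf21, all called (54.1% of all genes were, 49.4% of these higher, or 84.1% with library totals). The largest adjusted p among them was 4.2e-04, for Acadm. With library totals Cpt1a (−0.21, adjusted p = 0.33), Acadm (0.094, adjusted p = 0.67) and Acadl (−0.048, adjusted p = 0.76) were not called, and Pdk4 was (2.55, adjusted p = 0.012). Pdk4 stood at 1.62 (SE 0.84, adjusted p = 0.11), which is made up of −0.16 in ApoYap Dox less −1.78 in BL/6 Dox. Without BL/6 Dox 3 it was called (2.96, adjusted p = 0.010). With any other single library left out Pdk4 was not called, with an adjusted p up to 0.25.

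The AAV-Cre vector alone, 24 hours after injection, also called none of the 8 (0.301% of all genes, none with DESeq2). An unadjusted p under 0.05 was seen for 2 of the 8, and no share of all genes was worked out for that cut. For 2 of them, Cpt1a and Acadm, the groups did not overlap (8.30% of all genes in this direction). Acadm was at 319, 271 and 282 CPM against 226, 226, 248 and 229 CPM in BL/6 ctrl (0.32, SE 0.13, adjusted p = 0.29) and Ehhadh at 15.9, 11.7 and 14.7 CPM against 13.2, 6.92, 10.0 and 8.68 CPM (0.53, SE 0.26, adjusted p = 0.37). Net of the vector the log2 differences were −0.68 for Cpt2 (adjusted p = 0.0083), −1.25 for Ehhadh (0.014) and −0.57 for Acadm (0.029). The Acadm value is made up of −0.24 in the knockout, which was not called, less 0.32 at 24 hours after the vector. That of Ehhadh is −0.72 less 0.53. Of all genes 24.4% were called and 11.4% were lower (53.1% of the calls were higher, or 88.5% with library totals). The Acadm call was lost without any of 6 libraries, BL/6 ctrl 1, BL/6 AAV-Cre 1, Lats1/2 flox ctrl 2 or 3 and Lats1/2 KO 1 or 2, with adjusted p between 0.0502 and 0.0873, and the Ehhadh call without Lats1/2 KO 2 (0.056). RLE scaling (0.051) and no filter on low counts (0.060) also ended the Acadm call, and with library totals none of the 3 was called.

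Between untreated strains no member was called. None of the 8 was called between ApoYap ctrl and BL/6 ctrl (0.439% of all genes called, 33.3% of these higher, or 45.5% with library totals; 1 of the 8 at an unadjusted p under 0.05, Acadm at −0.31) or between Lats1/2 flox ctrl and BL/6 ctrl (4.12%, 76.4% of these higher, or 59.2% with library totals; 2 of the 8, Cpt1a at 0.27 and Acadm at 0.30). Acadm was lowest in ApoYap ctrl, at 188 ± 6.03 CPM (SD, n = 4), intermediate in BL/6 ctrl at 233 ± 10.5 CPM (n = 4), and highest in Lats1/2 flox ctrl at 285 ± 54.8 CPM (n = 4). The adjusted p-values of these differences from BL/6 ctrl were 0.51 and 0.18. No share of all genes was worked out for the unadjusted cut.

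The other genes of fatty acid oxidation and ketogenesis, 55 tested of 59 in 5 lists, mostly fell. With YAP induction 44 fell and 3 rose, with a median log2 fold change of −1.55 beside −0.78 for the 8 members. In the knockout 32 fell and 4 rose, with a median of −0.62 beside −0.49. With library totals the numbers were 35 and 11 on induction (median −0.64) and 15 and 7 in the knockout (median −0.15). These lists overlap a list whose fall was already known from the same libraries, so they add no independent evidence of direction.

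Of 14 genes of fatty acid uptake, activation and carnitine transfer 11 fell and 1 rose on YAP induction, and 7 fell and 1 rose in the knockout. Fabp1, the liver's main cytosolic fatty acid carrier, fell by 6.45 on the log2 scale on induction and by 1.33 in the knockout. The very-long-chain acyl-CoA synthetase Slc27a2 fell by 2.97 and by 1.46, the long-chain synthetase Acsl1 by 2.80 and by 1.37, and the bile acyl-CoA synthetase Slc27a5 by 3.56 and by 0.68 (not called in the knockout with library totals). The gene that rose in both was Cd36, a fatty acid translocase (1.96 and 2.63), which endothelial cells and macrophages also express.

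Of 14 further genes of mitochondrial beta-oxidation 12 fell and 1 rose on induction, and 10 fell and 2 rose in the knockout. The short-chain dehydrogenase Acads (−1.78 and −0.71), the enoyl-CoA isomerase Eci1 (−1.88 and −0.80) and the thiolase Acaa2 (−1.99 and −0.60) were lower in both. Acot2, a mitochondrial acyl-CoA thioesterase, rose by 4.22 and 2.25, with the caution that its near-identical neighbours can share its tags. The other gene higher in the knockout, named after its values were seen, was the isomerase Eci2 (0.53). With library totals 11 were lower and 2 higher on induction, but 1 was lower and 2 were higher in the knockout (median −0.11).

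Of 15 further peroxisomal genes 12 fell and 1 rose on induction, and 11 fell and none rose in the knockout. The carnitine octanoyltransferase Crot fell by 2.6 and by 0.86, the thiolase and carrier gene Scp2 by 2.36 and by 1.34, and the dienoyl-CoA reductase Decr2 by 2.94 and by 1.08. The peroxisomal membrane transporter Abcd3 fell by 2.30 on induction. The gene that rose on induction, named after its values were seen, was the fatty acid importer Abcd2 (1.06), which was lower in the knockout (−1.13, adjusted p = 0.046), a call lost with library totals and with RLE scaling.

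Omega oxidation, which begins with the Cyp4 enzymes, had 7 of 8 genes lower on induction (median −3.47) and 3 in the knockout. Cyp4a10 fell by 6.49 and by 2.32, and Cyp4a14 by 3.94 in the knockout, while Cyp4a12a and Cyp4a12b fell by 3.24 and by 7.06 on induction. The Cyp4a genes are near-identical neighbours, so the split of tags among them is uncertain. Cyp4f14 fell by 1.28 on induction.

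Of 4 genes of ketone body synthesis and export 2 fell on induction, and 1 fell and 1 rose in the knockout. The 3-hydroxybutyrate dehydrogenase Bdh1 fell by 3.09 and by 0.83. The mitochondrial acetoacetyl-CoA thiolase Acat1 fell by 1.19 on induction and was at −0.16 in the knockout (adjusted p = 0.56). The gene higher in the knockout, named after its values were seen, was the monocarboxylate transporter Slc16a1 (0.55). The other transporter, Slc16a6, was at −0.33 on induction (adjusted p = 0.24) and −0.51 in the knockout (adjusted p = 0.12). With library totals 1 of the 4 was lower and 2 were higher on induction (median 0.15), and Acat1 lost its call. In the knockout 1 was lower and 1 higher on that scale (median 0.13).

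**Figure D5:**
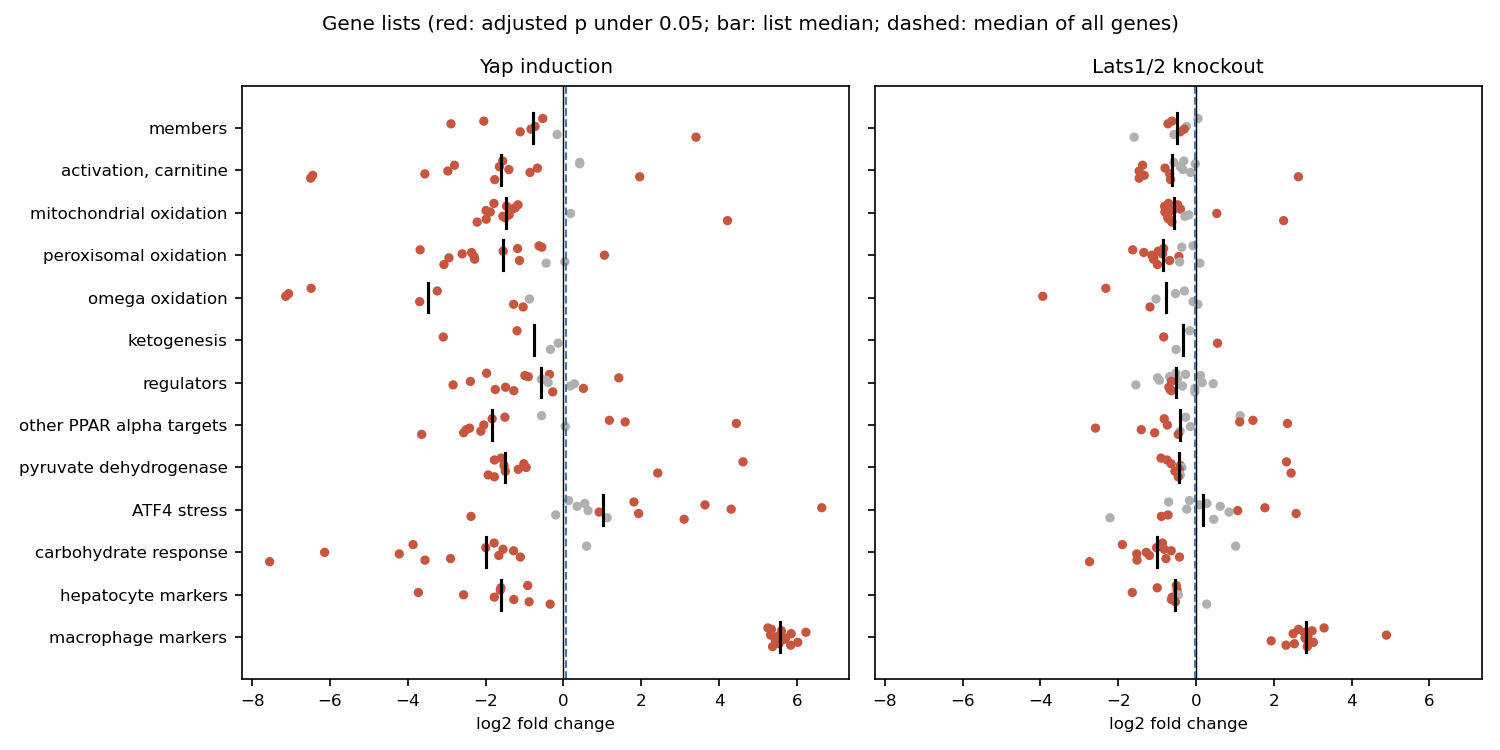
Log2 fold change (x axis) of each gene of 13 lists (y axis) in YAP induction (left) and the Lats1/2 knockout (right), TMM scaling; red points have an adjusted p under 0.05, black bars are list medians, the dashed line is the median of all genes. The oxidation and ketogenesis lists have medians of −0.76 to −3.47 on induction and −0.34 to −0.86 in the knockout, and macrophage markers 5.58 and 2.82.

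Of 17 transcription factors, coactivators and other regulators of the pathway 10 fell and 2 rose on induction (median −0.57), and 4 fell in the knockout, where 17.4% of all genes did. Creb3l3, a liver factor that acts with PPAR alpha on Fgf21 and ketogenic genes, fell by 2.39 and by 0.63. The hepatocyte factor Hnf4a fell by 1.27 and by 0.63, the AMPK subunit Prkaa2 by 1.75 and by 0.66, and the mitochondrial deacetylase Sirt3 by 1.49 and by 0.70. Ppara itself, named after its values were seen, fell by 1.97 on induction (adjusted p = 5.0e-06) and was at −0.51 in the knockout (adjusted p = 0.16). The 2 that rose, also named after the fact, were Pparg (1.42) and Prkaa1 (0.52). With library totals 6 regulators were higher and 6 lower on induction, and 3 higher and none lower in the knockout.

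Other known PPAR alpha targets were mixed, with 8 lower and 3 higher of 13 on induction, and 6 lower and 3 higher in the knockout. Apoa5 fell by 3.64, Retsat by 2.5 and the lipid droplet protein Plin5 by 1.83 on induction. Those that rose in both were the mitochondrial uncoupling protein gene Ucp2 (4.45 and 2.35), which macrophages express strongly, and, named after their values were seen, the thioesterase Acot1 (1.59 and 1.12) and the pantetheinase Vnn1 (1.18 and 1.46). With library totals 2 were lower and 5 higher in the knockout (median 0.048).

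Of 11 genes of the pyruvate dehydrogenase system, on which PDK4 acts, 9 fell and 2 rose on induction, and 7 fell and 2 rose in the knockout. The subunits Pdhb (−1.53), Pdhx (−1.49) and Dld (−1.16) and the pyruvate carrier Mpc2 (−1.77) were lower on induction. The kinase Pdk1 fell by 0.90 and the subunit Pdha1 by 0.64 in the knockout. Those that rose in both, named after their values were seen, were another kinase, Pdk3 (4.62 and 2.33), and the phosphatase Pdp1 (2.43 and 2.45). Under library totals 7 were lower on induction and none in the knockout.

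Fgf21 acts on cells through beta-klotho and FGF receptors. In these hepatocyte libraries Klb (−1.32), Fgfr4 (−0.92) and Fgfr3 (−1.66) fell and Fgfr2 rose (0.54, adjusted p = 0.044) on induction. Fgfr1, named after its values were seen, was at 0.40 on induction and was not called (adjusted p = 0.11). In the knockout Fgfr3 fell by 1.11, Fgfr2 rose by 0.65, and Klb was at −0.40 (adjusted p = 0.080). With library totals Fgfr4 lost its call on induction.

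Genes of the ATF4 stress response, to which Fgf21 belongs, rose in part on induction: 7 of 14 were higher and 1 lower, with a median of 1.02, where 35.0% of all genes were higher. Psat1, of serine synthesis, rose by 6.64, Nupr1 by 3.10 and Ddit3, which encodes CHOP, by 1.81, whereas the cystathionine lyase Cth fell by 2.37. In the knockout 3 were higher and 2 lower, with a median of 0.18, where 20.6% of all genes were higher. Psat1 rose by 1.77, Cth fell by 0.89 and Atf5 by 0.72, and Ddit3 was at −0.70 (adjusted p = 0.086). The other genes higher in the knockout, named after their values were seen, were Atf3 (2.57) and Gdf15 (1.07), a stress hormone. With library totals 13 of the 14 were higher on induction, and in the knockout 6 were higher and none lower. Atf4 mRNA itself, named after its values were seen, was at 0.14 on induction and −0.17 in the knockout, and was called in neither.

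Genes of carbohydrate response and fat synthesis were mostly lower in both comparisons, and fasting and gluconeogenic genes on induction. Of 13 genes of carbohydrate response and fat synthesis 12 fell in each comparison, with medians of −2.0 and −1.02. Fasn, the fatty acid synthase, fell by 4.22 and by 1.52, Thrsp by 7.55 and by 2.74, the fructose kinase Khk by 2.0 and by 1.02, and Elovl6 by 2.90 and by 0.77. With library totals 7 of the 13 were lower in the knockout, and Elovl6 was not among them. Of 8 fasting and gluconeogenic genes 6 fell and 1 rose on induction, and 1 fell in the knockout, where 17.4% of all genes were lower. Pck1 fell by 2.44, Lpin2 by 1.84 and Klf15 by 1.61 on induction, and the tyrosine aminotransferase Tat by 3.32 and by 1.94. The one that rose, named after its values were seen, was the clock gene Per1 (2.28). With library totals 4 of the 8 were lower and 2 higher on induction, and Igfbp1 and Irs2 lost their calls. In the knockout 1 was lower and 1 higher on that scale. Neither doxycycline nor AAV-Cre in C57BL/6 mice called a gene of these pathway and regulator lists. AAV-Cre there called 1 of the 9 hepatocyte markers, Apob (0.86, adjusted p = 0.039).

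Markers of other cell types moved with both YAP-activated groups. The 14 macrophage markers, summed without scaling, made up 87.3 to 207.9 CPM in ApoYap ctrl and 12070 to 21008 CPM in ApoYap Dox, and 81.2 to 253.8 CPM in Lats1/2 flox ctrl and 834.2 to 2208 CPM in Lats1/2 KO. All 14 rose in both comparisons, as did all 12 endothelial markers, summed to 66.0 to 152.2 and 1341 to 2460 CPM, and to 63.8 to 192.7 and 455.6 to 1230 CPM. None of these markers was at 0 in any group. The 6 neutrophil markers summed to 0.513 to 1.93 CPM in ApoYap ctrl and 154.1 to 301.4 CPM in ApoYap Dox, and to 0.472 to 1.26 and 1.88 to 8.47 CPM in the floxed and knockout mice, with 5 and 3 of the 5 tested called higher. The 8 stellate cell markers summed to 43.6 to 88.3 and 188.3 to 318.8 CPM on induction (4 called higher), and to 50.2 to 59.5 and 192.5 to 637.2 CPM in the knockout (7 called higher). The 6 cholangiocyte markers went from 33.0 to 45.7 CPM up to 265.7 to 386.6 CPM on induction, and from 35.4 to 69.02 CPM up to 98.2 to 322.8 CPM in the knockout, with 1 and 2 of the 2 tested called higher. The call on induction was Spp1 alone (5.40, adjusted p = 6.6e-09), whereas Sox9 was at −0.08 (adjusted p = 0.84). Krt7, Krt19, Epcam and Cftr did not pass the filter on low counts. The 6 lymphocyte markers summed to 0 to 0.0769 CPM in ApoYap ctrl and 0.532 to 1.98 CPM in ApoYap Dox. In the floxed and knockout mice these sums were 0 to 0.423 and 0.197 to 0.794 CPM. None of the lymphocyte markers passed the filter on low counts. The 9 hepatocyte markers summed to 89125 to 104806 CPM in ApoYap ctrl and 65542 to 89946 CPM in ApoYap Dox, and their median log2 fold change was −1.61, against −0.78 for the 8 members. In the knockout they summed to 81590 to 91731 and 81603 to 84711 CPM, with a median of −0.53 against −0.49. The sums are unscaled, whereas these medians are with TMM scaling. With library totals 6 of the 9 were lower and 1 higher on induction (median −0.70, against 0.13 for the members). In the knockout 2 were lower and 1 higher on that scale (median −0.063 against −0.021).

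The induced library with the most macrophage markers, ApoYap Dox 3, had the lowest level of 5 of the members, Cpt1a, Cpt2, Acadm, Acadl and Hadha. In the knockout the library with the most, Lats1/2 KO 2, had the lowest level of Ehhadh, Acadl, Hadha and Fgf21. None of the first 5 lost its call on induction when any library was left out. Without Lats1/2 KO 2, Ehhadh (adjusted p = 0.20), Acadl (0.17) and Hadha (0.13) were no longer called in the knockout, and Fgf21 was not called there in the full set. Ehhadh (0.12) and Acadl (0.083) also lost their calls without Lats1/2 KO 1, the knockout library with the fewest macrophage markers (834.2 CPM). The part of these other cells in the falls was not tested, and in such bulk samples fewer hepatocytes and less RNA per hepatocyte cannot be told apart.

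Across all 25 libraries the genes most like each member by Pearson correlation of log2 CPM, among 8955 genes, are given as a description, since the libraries fall into groups that differ strongly. For Cpt2 they were Cyp2d10 (0.99), Cyp2d9 and Phyh, and for Hadha Vkorc1 (0.98), Acaa2 and Azgp1. Acadm was most like Gclm (0.96), Aox1 and A1cf, Acadl most like Cyp4a10 (0.95), Pgm1 and Pccb, and Ehhadh most like Mup2 (0.95), Lect2 and Synj2bp. The correlations were lower for Cpt1a with Klhl12 (0.84), Ltn1 and Cfl2, for Fgf21 with Impact (0.80), Ogfrl1 and Trim41, and for Pdk4 with Zfp36l1 (0.75), Sik1 and Uimc1. Between members, Cpt2 and Hadha were most alike (0.96 over all libraries, 0.75 after each group's mean was taken out). Cpt2 and Ehhadh stood at 0.89 over all libraries but at −0.22 within groups, where Ehhadh rests on few counts.

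Ordered by mean level, ApoYap Dox was the lowest of the 7 groups for Cpt1a, Cpt2, Ehhadh, Acadm, Acadl and Hadha, and the highest for Fgf21. Lats1/2 KO was second lowest for Cpt2, Ehhadh, Acadl and Hadha, with no overlap with its own controls. The remaining 5 groups lay between 70.4 and 83.8 CPM for Cpt2, 161 and 183 CPM for Acadl, 341 and 411 CPM for Hadha and 9.70 and 14.1 CPM for Ehhadh, and no neighbours among them differed by more than their spread. Acadm was second lowest in ApoYap ctrl, and BL/6 ctrl, next in that order, did not overlap with it (true of 3.59% of all genes in this direction). For Cpt1a the top of the order was BL/6 Dox at 197 ± 38.4 CPM (SD, n = 4), followed by Lats1/2 KO at 161 ± 23.7 CPM (n = 3) and Lats1/2 flox ctrl at 156 ± 9.37 CPM (n = 4), which differ by less than their spread. For Pdk4 the groups lay between 0.416 ± 0.484 CPM in BL/6 Dox (n = 4) and 1.79 ± 0.89 CPM in BL/6 AAV-Cre (n = 3), and apart from BL/6 Dox no neighbours in that order differed by more than their spread. Fgf21 ran from 0.186 ± 0.160 CPM in BL/6 Dox (n = 4) to 1.28 ± 0.629 CPM in Lats1/2 flox ctrl (n = 4) outside ApoYap Dox, where it was 3.74 ± 0.210 CPM (n = 3).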

How the data were processed

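RNA 3′ ends were sequenced in 25 libraries of 7 groups of mouse hepatocytes (QuantSeq 3′ mRNA-Seq FWD, per the labels' protocols). Reads were trimmed with cutadapt, checked with FastQC and aligned with STAR 2.6.1d to mm10, per the submitters' processing notes. Which tool counted the reads, on which annotation and with which strand setting, is not given in the sources used here. The authors deposited a table of raw counts per gene symbol and library, with no normalization. A 3′ kit yields 1 tag position per transcript end, so counts were not divided by length. No molecular identifiers are named, so limits on counts cover counting error only.

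The counts were modelled with edgeR 4.0.16 (R 4.3.3): filterByExpr by group (minimum count 10, minimum total 15), TMM scaling, and a robust quasi-likelihood fit with 1 mean per group over all 25 libraries. Tests used glmQLFTest with Benjamini-Hochberg adjustment over 12970 genes and a threshold of 0.05. The 95% intervals are normal ones from the SE. The least different pair of replicates had a chi-square per degree of freedom of 7.77, so none was counted as a repeat. The 8 members and the gene lists were chosen with earlier results of these data known. Some genes of the peroxisomal and ketone body lists are not reported here and were left out of the lists' counts and medians. From each list up to 4 genes with the smallest p on YAP induction and 2 in the knockout were named, and for likeness the top 3 genes (average log2 CPM 2 or more). The alternatives were DESeq2 1.42.0, RLE scaling, library totals, no filter, 10 CPM in 3 libraries, only the compared groups, the replicate block, leaving out each library, and leaving out BL/6 Dox 1 and 2 together. Coordinates are from GENCODE M21 (GRCm38) and promoters from RefSeq (GRCm38.p6). The fit was tested on simulated counts in which few genes changed, up or down at random. That test does not cover the scaling of comparisons in which a large share of genes moves.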

Additional observations from a re-analysis of the deposited data

Results flagged for a closer look

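Of the 32 sets of 4 libraries of 1 member in 1 group, 7 held a library far from the others, where chance gives about 1 in 20. The values were 178.4 CPM for Cpt1a in ApoYap ctrl 1 (next 131.3 CPM), 9.32 CPM for Ehhadh in ApoYap ctrl 4 (next 11.8 CPM), 248.2 CPM for Acadm in BL/6 ctrl 3 (next 229.3 CPM) and 520.0 CPM for Hadha in BL/6 Dox 2 (next 379.0 CPM). Pdk4 gave the remaining ones, at 2.59 CPM in BL/6 ctrl 1 (next 1.24 CPM), 1.13 CPM in BL/6 Dox 3 (next 0.282 CPM) and 2.49 CPM in ApoYap ctrl 3 (next 1.43 CPM), all on few counts.

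The change between groups differed by a test of the difference in 16 cases. Against doxycycline in C57BL/6 mice, YAP induction differed for Cpt1a (−1.14), Cpt2 (−2.18), Ehhadh (−3.23), Acadm (−0.83), Acadl (−0.98), Hadha (−1.38) and Fgf21 (5.18). Against AAV-Cre in C57BL/6 mice, the knockout differed for Cpt2 (−0.68), Ehhadh (−1.25) and Acadm (−0.57). The knockout less YAP induction differed for Cpt1a (0.58), Cpt2 (1.43), Ehhadh (2.17), Acadl (0.53), Hadha (0.70) and Fgf21 (−5.00). All are log2 differences with an adjusted p under 0.05 in edgeR's quasi-likelihood test.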

How the results depend on the processing

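Of 1199 values of single members under the alternatives, 1108 kept their direction and side of the threshold, and the cause was not tested for those that did not, beyond the number of genes or samples used. Library totals alone gave 4 members called on YAP induction, 1 in the knockout, 0 net of AAV-Cre and 3 in the knockout less YAP induction. Of the 12970 genes tested 10251, 6353, 3938 and 4827 were called on that scale, in the same order. Library totals turned the direction of Cpt1a (0.39), Acadm (0.19), Acadl (0.081) and Pdk4 (0.76) on induction, and of Acadm (0.22), Acadl (0.16) and Hadha (0.054) in the knockout. They also turned Acadm (0.094) net of doxycycline, and Cpt1a (0.27) and Acadl (0.11) net of AAV-Cre. For the 55 list genes, where the scaling was varied after the data were seen, 47 and 36 were called in the main analysis, 46 and 22 with totals and 47 and 33 with RLE. Fits to only the compared groups called 1 member in the knockout, 1 with AAV-Cre (Acadm) and 1 between ApoYap ctrl and BL/6 ctrl (Acadm), and turned Pdk4 there to −0.0017. For doxycycline DESeq2, the filter of 10 CPM, which left out Pdk4 and Fgf21, and leaving out BL/6 Dox 1 and 2 together each called 1 member, Cpt1a, and the last turned Cpt2 to −0.053.

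With each library left out in turn, members called were 7 throughout on induction, 7 to 8 net of doxycycline, 1 to 5 in the knockout (1 without Lats1/2 KO 2), 0 to 1 with doxycycline, 1 to 4 net of AAV-Cre and 5 to 7 in the knockout less induction. Directions turned for Pdk4 on induction (−0.50 to 0.15), Cpt1a in the knockout (−0.074 to 0.13), Fgf21 (−1.12 to 0.12), Pdk4 (−0.22 to 0.55) and Acadl (−0.050 to 0.11) with AAV-Cre, and Pdk4 in the knockout less induction (−0.74 to 0.028). Between untreated strains they turned for Pdk4 (−0.24 to 0.42), Cpt2 (−0.022 to 0.071) and Cpt1a (−0.010 to 0.18) in ApoYap ctrl, and for Pdk4 (−0.32 to 0.46) and Acadl (−0.058 to 0.0057) in Lats1/2 flox ctrl. None of these was called in the main analysis.

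The deviations of same-numbered libraries were not all correlated above 0.1 (0.10, 0.05 and 0.16 on induction, −0.13, −0.24 and 0.02 in the knockout), so the samples were not treated as paired. So few libraries cannot show that no pairing exists. With the replicate block 7 members were called on induction and 5 in the knockout, where Fgf21 was at −1.77 (adjusted p = 0.044). Pdk4, Fgf21 and Ehhadh rest on few counts, and 1 count is worth 0.036 to 0.14 CPM.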
